A study of Mus musculus with 8 samples.

Results

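The comparison is between mature basophils and their immediate precursors, the pre-basophils (pre-Baso), of control mice, described across all genes. Its members are the 2 basophil and the 2 pre-Baso RNA-seq libraries labelled as control, 4 of the 8 libraries of the series. The study sorted both stages from the bone marrow of C57BL/6J mice, in duplicate, from littermate controls (genotype labelled wild type) and from mice labelled Nfil3-depleted, in which the floxed gene of the transcription factor Nfil3 had been removed. The driver of that deletion, the alleles that the controls carry, the ages and the number of animals behind a library are not given in the sources used here. Both stages were gated as cells lacking lineage markers, CD34 and c-Kit and carrying CD200R3. The pre-Baso gate then took cells with high staining for MAR1, an antibody to the alpha chain of the IgE receptor, and the basophil gate took cells with intermediate staining. The duplicates are described as biological, and p-values measure the spread between these libraries.

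Basophils are rare granulocytes that arise in the marrow under IL-3 and the transcription factors GATA2 and C/EBPα. They carry the high-affinity IgE receptor FcεRI, which signals through Lyn and Syk on cross-linking, store histamine and proteases in granules, and release IL-4 and chemokines. Maturation in the granulocyte lineages in general goes with an end to cell division, an end to granule protein synthesis and the appearance of receptors for chemoattractants that lead the cells out of the marrow.

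Levels are given as TPM (length-normalised transcript abundance scaled to a fixed total per library), summed over the transcripts of a gene. Changes are basophil minus pre-Baso on the log2(TPM + 1) scale with their standard error (SE), which understates changes of low genes. Calls rest on limma's moderated linear model over all 8 libraries, with the adjusted p below 0.05. The control libraries held between 271.7 and 398 megabases assigned to transcripts, the basophil libraries being the shallower. Protein-coding genes took 18.7 to 22.4% of all TPM, and genes annotated as miRNA took 57.4 to 62.8%. Nfil3 itself was at 6.61 and 7.65 TPM in pre-Baso and 20.5 and 22.5 TPM in basophils of controls, against 0 to 1.32 TPM in the 4 Nfil3-depleted libraries. In sorted bulk samples, fewer cells of a type and less RNA per cell cannot be told apart.

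The first control basophil library stood apart in transcripts of other cell types. Prg2, the eosinophil major basic protein, was at 90.1 and 29.8 TPM in the pre-Baso libraries, at 2354 TPM in the first basophil library and at 19.4 TPM in the second. The 10 eosinophil markers summed to 134.5 and 80.6 TPM in pre-Baso and to 2729 and 103.7 TPM in basophils. Markers of antigen-presenting cells followed the same pattern, with the 13 dendritic cell markers, MHC class II genes among them, at 49.9 and 60.7 against 793.6 and 59.6 TPM. The 14 B and plasma cell markers summed to 15.3 and 20.5 against 480.6 and 35.2 TPM. The second basophil library did not share these levels. Markers of neutrophils and of monocytes and macrophages were higher in both basophil libraries, at 951.4 and 836.1 against 2672 and 1524 TPM for the 15 neutrophil markers and 180.2 and 207.6 against 916.8 and 358.6 TPM for the 17 monocyte and macrophage markers. The 12 erythroid markers, mostly haemoglobin, summed to 41.7 and 49.9 against 187 and 145 TPM. Defining mast cell genes were at or near 0: Mcpt4, Tpsab1 and Mrgprb2 were listed at 0 in all 4 libraries, and the 9 markers found reached at most 1.12 TPM in sum. Cd3e, Cd3g and Trac, which define T cells, were listed at 0 as well, and the 14 T and NK cell markers summed to 171.2 and 207.1 against 72.0 and 61.9 TPM, most of it Nkg7. The 10 platelet markers summed to between 58.9 and 99.1 TPM with overlapping groups, and Ppbp was listed at 0. The part of other cells in the results below was not tested, and counts of the lists are also given without the first basophil library.

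**Figure D1:**
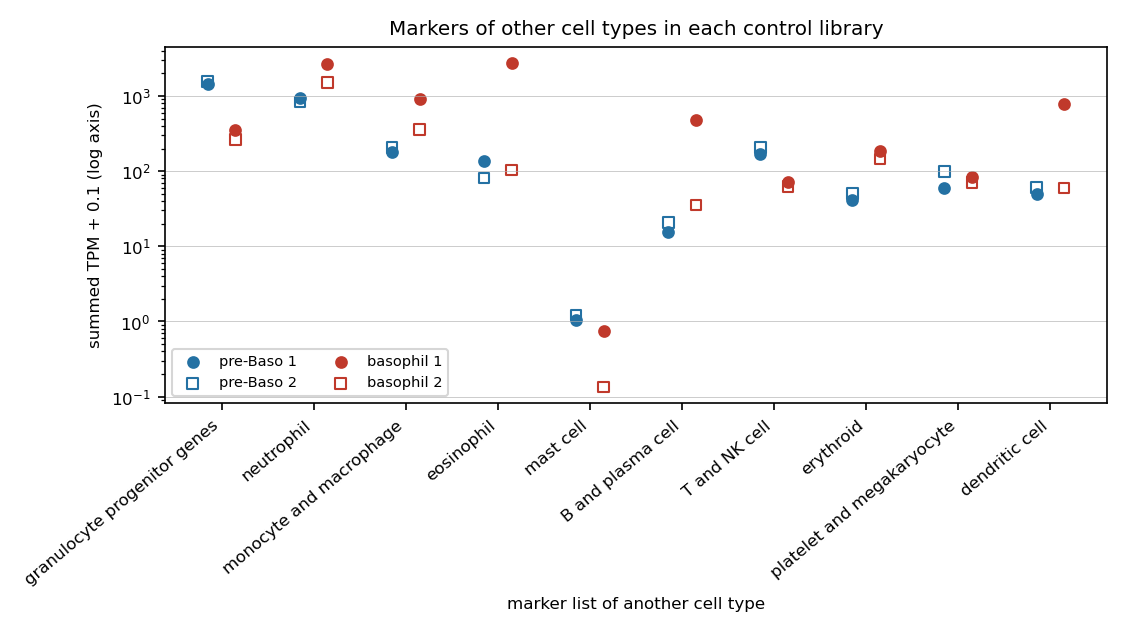
Summed TPM (plus 0.1, log axis) of 10 marker lists of other cell types in each of the 4 control libraries, 1 point per library. The eosinophil, B and plasma cell and dendritic cell lists are high in the first basophil library (filled red), at 2729, 480.6 and 793.6 TPM, while the second lies near the pre-Baso libraries.

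The stages differed in many genes, in both directions. Of 12511 genes tested, 2832 were called (22.6%), 1576 of them higher in basophils (12.6%) and 1256 lower (10%). The list counts below are to be read beside these shares. List counts from fits without 1 library are to be read beside the counts over all genes in the same fits. A change of at least 2 on the log2 scale was seen for 61 of the genes called higher and for 159 of those called lower, so the steeper changes were more often decreases. The 2 groups did not overlap for 7846 genes (62.7%), and the median change of all genes tested was 0.08. Replicates correlated at r = 0.979 (pre-Baso) and r = 0.962 (basophil) across genes, and libraries of different stages at 0.903 to 0.916. Leaving out 1 control library lowered the counts: without the first pre-Baso library 564 genes were called higher and 833 lower, without the second 1231 and 563, without the first basophil library 690 (5.52%) and 900 (7.19%), together 12.7%, and without the second 1126 and 744. No called gene turned its direction in any of these fits. This outcome was fixed in advance, because the 2 groups did not overlap for any of the 2832 called genes. An exact permutation test of 1 gene in 2 against 2 libraries cannot go below p = 0.333, so the calls rest on the spread shared across genes.

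**Figure D2:**
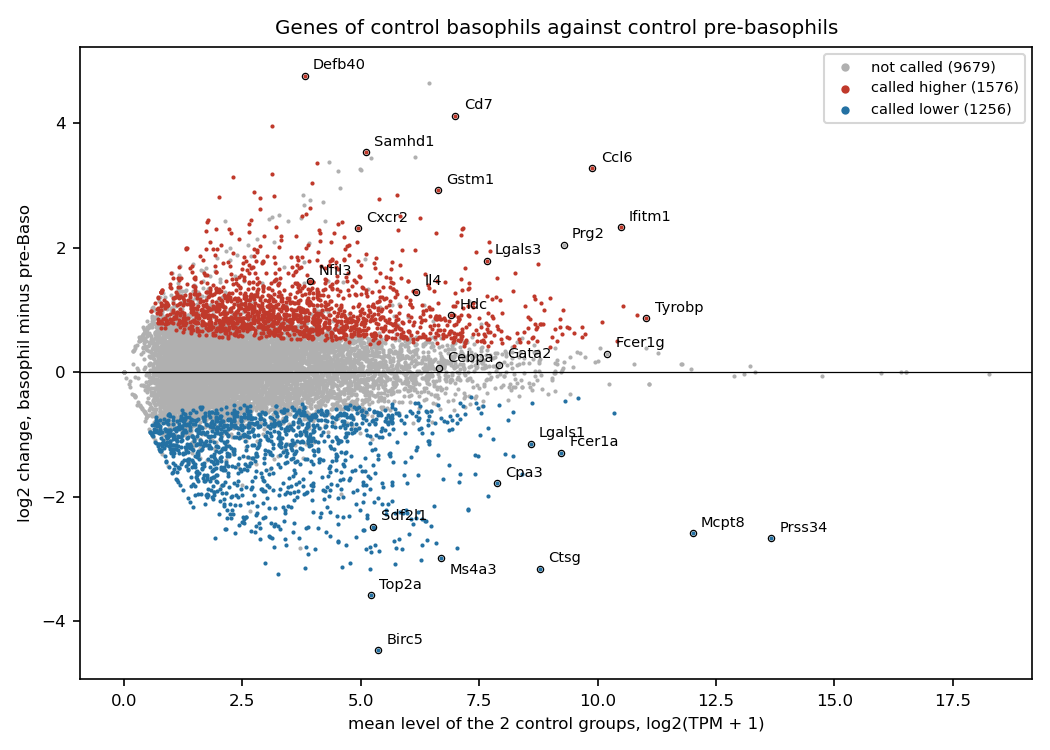
Log2 change from pre-Baso to basophil (y axis) against the mean level of the 2 control groups (x axis, log2(TPM + 1)) for the 12511 genes tested, 1 point per gene. Mcpt8 and Prss34 lie far to the right among the 1256 genes called lower (blue), Cd7 and Ccl6 lie high among the 1576 called higher (red), and Gata2, Cebpa and Fcer1g lie near 0 without a call. Prg2, whose 2 basophil libraries were at 2354 and 19.4 TPM, is not called.

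Granule protease transcripts, the most abundant messages of the precursors, were several times lower in basophils. Prss34, a serine protease of basophil granules and the protein-coding gene with the highest level in pre-Baso, was at 19820 and 25020 TPM there and at 2667 and 4617 TPM in basophils (log2 change -2.67 ± 0.29, adjusted p = 0.000814). Mcpt8, the protease that marks mouse basophils, was at 6244 and 7888 against 969 and 1400 TPM (-2.59 ± 0.24, adjusted p = 0.000493). Together these 2 genes took 13.96 and 14.7% of all protein-coding TPM in the pre-Baso libraries and 1.73 and 3.06% in the basophil libraries. Both still ranked among the abundant messages of basophils. Ctsg, cathepsin G of azurophil granules, was at 745.1 and 841 against 85.1 and 90.4 TPM (-3.16 ± 0.21, adjusted p = 0.000236). Cpa3, the carboxypeptidase shared with mast cells, was at 348 and 377.5 against 98.02 and 111.4 TPM (-1.78 ± 0.20, adjusted p = 0.000908). Of 9 tested genes of the list of granule proteases and the proteoglycan core, 6 fell and 0 rose, with a median of -0.98. The other 2 that fell were Serpinb1a, a protease inhibitor, and Srgn, the serglycin core protein that packs granule contents. Srgn changed least of the 6 (-0.49 ± 0.13, adjusted p = 0.0264), and both calls ended without any 1 of the 4 control libraries (adjusted p 0.0681 to 0.144 for Srgn and 0.0633 to 0.204 for Serpinb1a). Gzmb and Ctsc were not called. Without the first basophil library 5 of the 9 fell, and without any other 1 control library 4 fell.

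Genes of granulocyte progenitors fell alongside. Their list shares Ctsg with that of granule proteases, and Clec12a with those of sort and stage markers and of inhibitory and paired receptors, so these counts are not independent. Of 11 tested, 6 were lower and 1 was higher, with a median of -1.12, and 7 and 0 without the first basophil library. Mpo, myeloperoxidase, was at 227.7 and 226.7 TPM in pre-Baso and at 41.3 and 23.4 TPM in basophils (-2.83 ± 0.31, adjusted p = 0.000841). Ms4a3, a tetraspan membrane protein of granulocyte and monocyte progenitors, was at 188 and 178.4 against 27.7 and 17.96 TPM (-2.98 ± 0.26, adjusted p = 0.000415). Clec12a, an inhibitory lectin receptor, was at 47.6 and 52.4 against 16.7 and 10.9 TPM (-1.81 ± 0.23, adjusted p = 0.00167). In these 3 genes, as in every gene called lower, both basophil libraries lay below both pre-Baso libraries. Elane and Prtn3, the proteases that lie beside myeloperoxidase in azurophil granules, were not called; Elane was at 34.5 and 20.96 against 29.6 and 10.3 TPM. The 1 gene that rose, Hp, encodes haptoglobin and is also a neutrophil granule gene; it was at 23.1 and 26.7 against 69.2 and 45.4 TPM, and its call ended when the first library of either stage was left out (adjusted p = 0.0661 for pre-Baso and 0.0555 for basophil). Kit and Cd34, absent from the gate by protein, were under 2 TPM in all 4 libraries.

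Cell division genes showed the most uniform change. All 61 tested replication-dependent histone genes fell (median -2.15), as did 71 of 73 tested genes of G2 and M phase (median -2.13) and 45 of 52 of DNA replication and S phase (median -1.47), with 0 members higher in the 3 lists. Without the first basophil library the counts were 57, 66 and 36, and over the 4 fits without 1 control library they ranged from 57 to 60, from 60 to 67 and from 27 to 36, the S phase count being lowest without the second pre-Baso library. Birc5, survivin of the chromosomal passenger complex, had the steepest fall of the genes named by size, from 67.3 and 89.8 to 2.60 and 2.50 TPM (-4.47 ± 0.29, adjusted p = 0.00023). Top2a, the topoisomerase that untangles replicated DNA, went from 58.9 and 75.2 to 2.96 and 6.95 TPM (-3.59 ± 0.43, adjusted p = 0.00125). Ube2c, the ubiquitin conjugase of the anaphase-promoting complex, was at 76.1 and 112.1 against 8.20 and 12.2 TPM (-3.08 ± 0.29, adjusted p = 0.000556). Low levels of these messages remained in both basophil libraries. Rrm2, the ribonucleotide reductase subunit made in S phase, was at 49.6 and 69.9 against 7.52 and 7.15 TPM (-2.85 ± 0.25, adjusted p = 0.000431). Dut, which clears dUTP, was at 42.6 and 59.2 against 6.32 and 8.03 TPM (-2.66 ± 0.23, adjusted p = 0.000415). Among the histones H3c1 had the largest change, from 56.1 and 73.95 to 6.91 and 8.82 TPM (-2.89 ± 0.22, adjusted p = 0.000381); histone genes share reads with near-identical copies, so values of single copies are uncertain. Fen1 and Rfc4, which process and load at the replication fork, fell as well, but each was listed at 0 in the second basophil library. The 2 uncalled G2 and M phase genes, named here after their values were seen, were Cks2 (57.9 and 78.6 against 45.4 and 39.7 TPM) and Pttg1 (7.75 and 11.9 against 13.9 and 13.6 TPM).

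Promoters of these genes are shown because the letters of 2 elements known from cell cycle promoters recur in them. The cell cycle homology region (CHR) was searched as TTTGAA or TTCGAA and the CCAAT box as CCAAT, on both strands, in RefSeq promoters of GRCm38.p6 that run from 250 bases before to 50 bases after the gene start. The 6 windows below cover the bases just before the start, read 5′ to 3′ on the gene's strand, with the letters of both elements in capitals. They were chosen after the letters were seen, and Cdk1 and Cdc20 lie outside the rule for named genes.
Ccnb2: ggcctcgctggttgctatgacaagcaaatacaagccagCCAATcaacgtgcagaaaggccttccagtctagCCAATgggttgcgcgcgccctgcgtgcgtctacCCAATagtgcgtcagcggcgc
Top2a: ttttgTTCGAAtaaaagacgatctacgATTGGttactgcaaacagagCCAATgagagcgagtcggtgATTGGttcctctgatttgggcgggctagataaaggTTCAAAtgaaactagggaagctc
Asf1b: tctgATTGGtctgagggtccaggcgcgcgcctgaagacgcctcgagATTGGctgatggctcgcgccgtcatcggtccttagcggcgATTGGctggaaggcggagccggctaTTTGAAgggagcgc
Cdk1: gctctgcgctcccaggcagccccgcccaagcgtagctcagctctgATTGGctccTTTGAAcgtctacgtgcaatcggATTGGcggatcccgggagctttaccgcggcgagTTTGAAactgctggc
Cdc20: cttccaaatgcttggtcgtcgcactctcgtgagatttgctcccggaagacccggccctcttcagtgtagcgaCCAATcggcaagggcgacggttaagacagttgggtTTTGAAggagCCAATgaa
Ube2c: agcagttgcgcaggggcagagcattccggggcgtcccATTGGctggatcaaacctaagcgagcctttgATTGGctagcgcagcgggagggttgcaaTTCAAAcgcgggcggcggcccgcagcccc

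The windows lie at chr9:70421555-70421679 on the minus strand for Ccnb2 (cyclin B2), chr11:99024190-99024314 minus for Top2a, chr8:83955569-83955693 plus for Asf1b (a histone chaperone), chr10:69352913-69353037 minus for Cdk1 (the mitotic kinase), chr4:118437344-118437468 minus for Cdc20 (an activator of the anaphase-promoting complex) and chr2:164769804-164769928 plus for Ube2c. Ccnb2, Top2a and Asf1b each hold 3 CCAAT boxes there and the other 3 hold 2. All but Ccnb2 also hold 1 or 2 CHR matches before the start. Ccnb2 itself was at 39.4 and 56.9 against 5.16 and 4.39 TPM (-3.07 ± 0.24, adjusted p = 0.000384). Cdk1 was at 21.3 and 27.2 against 3.33 and 1.99 TPM (-2.80 ± 0.23, adjusted p = 0.000394).

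Over the whole 300-base promoters, CHR letters were in 75% of 64 promoters of tested G2 and M phase genes, in 25.3% of 975 promoters of genes called lower, in 13.2% of 1406 of genes called higher, in 14.7% of 9582 of all genes tested and in 19.2% of all 32851 promoters in the table. CCAAT was in 71.9%, 52.2%, 34.3%, 38% and 37.4% of the same sets. S phase promoters held CHR letters in 14.3% of 49 and E2F letters (TTGGCGC or TTCCCGC) in 49%, against 18.8% for G2 and M phase, 12.6% for all genes tested and 6.81% for all promoters. TTGGCGC can share letters with a CCAAT box read on the other strand (ATTGG). For GATA letters (AGATAA) the shares were 7.38% of promoters of genes called lower and 6.54% of those called higher, beside 6.51% of those of all genes tested and 11.2% of all promoters. Of 1256 genes called lower and 1575 symbols called higher, 823 and 1051 matched the table. These are matches of letters and were not tested.

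Of the genes that set entry into the cycle, 10 of 22 tested fell and 3 rose (median -0.77). Ccne2, cyclin E2, was at 4.48 and 4.995 against 0.69 and 0.53 TPM (-1.83 ± 0.21, adjusted p = 0.000969), and Cdk6, the kinase of D cyclins, was at 13.3 and 13.6 against 5.19 and 3.08 TPM (-1.52 ± 0.25, adjusted p = 0.00442). Cdkn2c, the p18 inhibitor of CDK4 and CDK6, fell with them, from 10.7 and 13.8 to 2.09 and 1.21 TPM (-2.33 ± 0.22, adjusted p = 0.000561). The 3 that rose were cyclin D2, p27 and p130. Ccnd2 was at 6.55 and 6.46 against 16.1 and 19.3 TPM (1.31 ± 0.19, adjusted p = 0.00247). Cdkn1b, the p27 inhibitor, was at 13.6 and 18.1 against 30.5 and 31.6 TPM (0.94 ± 0.23, adjusted p = 0.0229). Rbl2, the p130 pocket protein of resting cells, was at 6.10 and 8.498 against 13.04 and 15.98 TPM (0.91 ± 0.24, adjusted p = 0.0277). Without the second pre-Baso library 4 of the list fell and 3 rose, and without any other 1 control library 7 to 9 fell and 1 rose.

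Genes of the secretory pathway also fell. Of 33 tested genes of the unfolded protein response and the chaperones of the endoplasmic reticulum, 15 were lower and 1 higher (median -0.44). Without the second pre-Baso library 7 were lower, and without any other 1 control library 11 or 12. Sdf2l1, a partner of the BiP chaperone, was at 59.01 and 67.6 against 13.8 and 7.90 TPM (-2.48 ± 0.26, adjusted p = 0.00079). Calr, calreticulin, was at 99.5 and 91.4 against 36.4 and 20.1 TPM (-1.78 ± 0.27, adjusted p = 0.00329). Manf, secreted on stress of the reticulum, was at 50.8 and 66.1 against 16.3 and 20.2 TPM (-1.62 ± 0.23, adjusted p = 0.00246). In all 3, as in every called gene, the stages were separated. The 1 that rose was Ern1, the IRE1 sensor of unfolded protein, at 1.08 and 1.57 against 2.51 and 3.35 TPM (0.75 ± 0.21, adjusted p = 0.0332), and no gene of the list was called higher without the first pre-Baso library or either basophil library. Xbp1, whose message IRE1 splices, was not called at 23.5 and 33.02 against 25.2 and 21.9 TPM. Nuclear genes of the respiratory chain fell more often than they rose, 19 against 3 of 78 tested (median -0.38). The count of lower genes was 14 and 4 without the first and second pre-Baso library, and 11 and 5 without the first and second basophil library. Ndufa4 was at 220.3 and 266.8 against 126.1 and 113.7 TPM (-1.01 ± 0.17, adjusted p = 0.00438). Of the 13 chain genes of the mitochondrial genome only mt-Nd1 was called lower (adjusted p = 0.0431), and that call ended in 10 of 18 alternative fits. Ribosome biogenesis genes held 5 lower of 54 (9.26%), near the 10% of all genes tested, and 0 higher. The count of lower genes was 2 without the second pre-Baso library and 6 without the first basophil library. Sterol and fatty acid synthesis held 6 lower and 0 higher of 26, with 1 lower without either pre-Baso library, and 4 and 2 without the first and second basophil library.

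**Figure D3:**
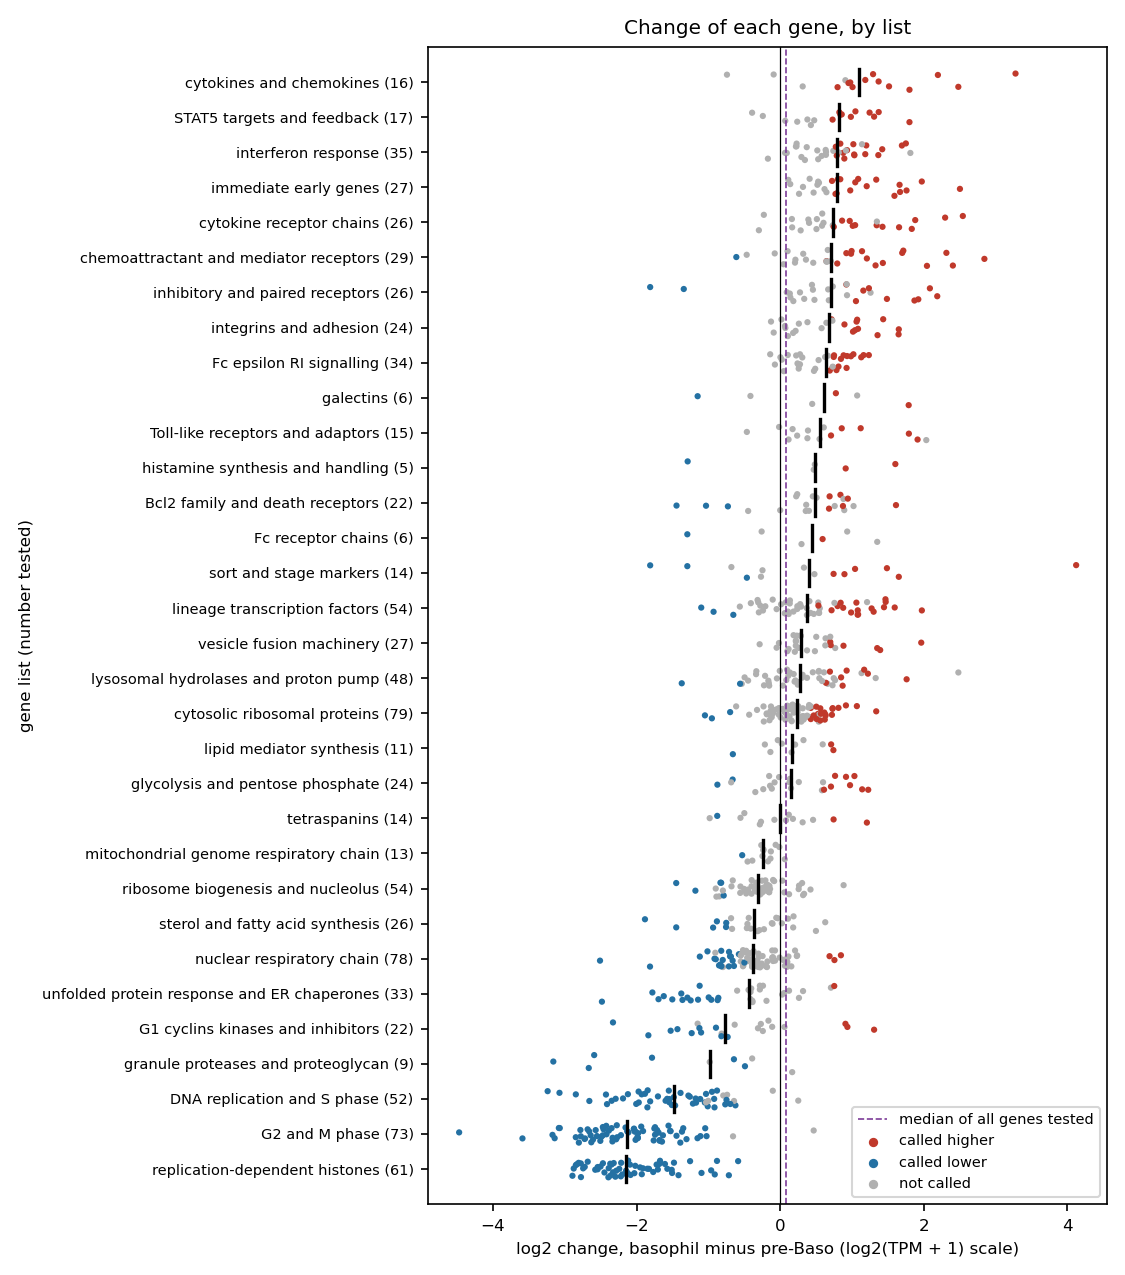
Log2 change of every tested member (points, 1 per gene) of the function lists, ordered by the list median (black bar), with the median of all genes tested as a dashed line. Histone, G2 and M phase and S phase genes lie to the left with medians of -2.15, -2.13 and -1.47, and cytokines and chemokines lie to the right with a median of 1.10.

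Cytokine and chemokine messages were higher in basophils. Of 16 tested genes of the list, 12 rose and 0 fell (median 1.10), and 9 to 11 rose without 1 control library, 10 without the first basophil library. Ccl6, a chemokine of myeloid cells, was the cytokine with the highest level, at 143.9 and 215.5 against 1713 and 1726 TPM (3.28 ± 0.18, adjusted p = 0.000111). Ccl9, its neighbour on chromosome 11, was at 41.8 and 55.9 against 222.2 and 228.9 TPM (2.20 ± 0.17, adjusted p = 0.000381). Ccl4 and Ccl3, the MIP-1 chemokines of the same region, were at 18.1 and 26.5 against 144.7 and 111.8 TPM and at 104.6 and 134.7 against 414.2 and 282 TPM (2.48 ± 0.23, adjusted p = 0.000477, and 1.52 ± 0.22, adjusted p = 0.00281). All 4 lie within chr11:83572919-83664683 (GRCm38, from the first base of Ccl9 to the last of Ccl4). Il4, the cytokine that basophils are known for in type 2 immunity, was at 38.096 and 43.4 against 99.4 and 103.1 TPM (1.30 ± 0.15, adjusted p = 0.00099). Csf1, the growth factor of macrophages, was at 24.1 and 22.98 against 66.2 and 59.1 TPM (1.37 ± 0.19, adjusted p = 0.00211), and Osm, oncostatin M, at 4.69 and 4.45 against 23.03 and 14.7 TPM (1.80 ± 0.29, adjusted p = 0.00425). Il6 was already at 26.7 and 37.7 TPM in pre-Baso and at 65.6 and 61.4 TPM in basophils (0.98 ± 0.23, adjusted p = 0.0191), a call that ended without the first pre-Baso library or either basophil library (adjusted p 0.0544 to 0.114). Il13 stayed under 2 TPM in all 4 libraries and its call ended without any 1 control library (adjusted p 0.08 to 0.148). Il5, Il10, Csf2 and Areg were listed at 0 throughout, and Tnf and Tgfb1 were not called.

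**Figure D4:**
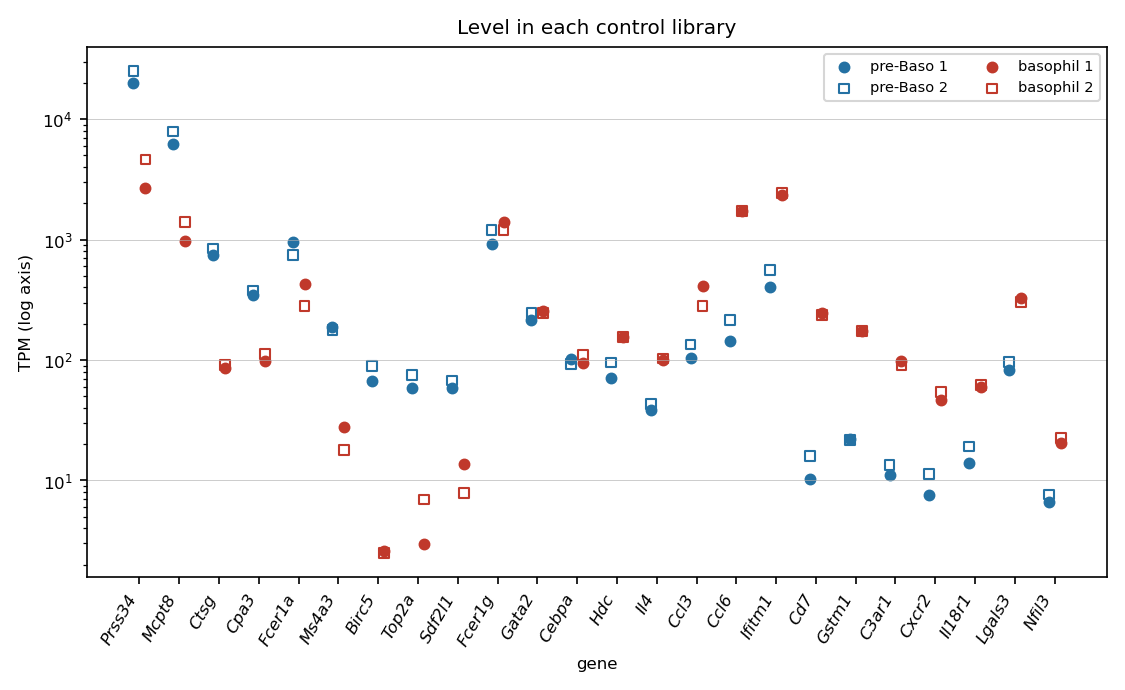
TPM (log axis) of 24 genes in each of the 4 control libraries, 1 point per library, pre-Baso in blue and basophil in red. The proteases at the left drop from pre-Baso to basophil, Gata2, Cebpa and Fcer1g keep overlapping or adjoining levels, and Ccl6, Ifitm1 and Cd7 at the right are higher in both basophil libraries.

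Of 14 tested sort and stage markers 6 were higher and 3 lower, and of 6 tested Fc receptor chains 1 was higher and 1 lower. Over all genes tested 12.6% were higher and 10% lower. The counts of sort and stage markers were 2 and 1 without the first pre-Baso library and 4 and 2 without the first basophil library. Those of Fc receptor chains were 0 and 0, and 0 and 1, in the same fits. Fcer1a, the IgE-binding alpha chain, was at 959.8 and 744.4 against 424.1 and 279.9 TPM (-1.29 ± 0.27, adjusted p = 0.0109, and 0.0797 without the first pre-Baso library). The gates were set on this protein, so the lower message is no finding between the stages. Ms4a2, the beta chain (209 and 285.8 against 206.3 and 202.5 TPM), and Fcer1g, the gamma chain (922.1 and 1208 against 1405 and 1199 TPM), were not called. Cd200r3, also part of the gate, was at 223 and 306.3 against 346.9 and 383.1 TPM without a call. Cd7, an immunoglobulin-family receptor known from lymphocytes, was at 10.2 and 16.1 against 244.8 and 236.3 TPM (4.12 ± 0.28, adjusted p = 0.000236), and in the annotation it shares exonic bases with 1 gene on the opposite strand, Gm11775. Cd9, a tetraspanin, rose to 290 and 291.7 TPM from 152.4 and 196.5 TPM (0.75 ± 0.15, adjusted p = 0.0107), a call that ended without the first basophil library (adjusted p = 0.0512). Itgam and Itga2, the alpha chains of CD11b and CD49b, rose (1.65 ± 0.31, adjusted p = 0.00726, and 1.04 ± 0.23, adjusted p = 0.014); both calls ended without the first pre-Baso library (adjusted p = 0.0588 and 0.0926), and that of Itga2 also without the second basophil library (adjusted p = 0.0632). Cd63, the granule membrane tetraspanin shown at the surface on degranulation, was not called (441.5 and 551.5 against 414.6 and 405.8 TPM).

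Of 34 tested signalling genes downstream of the receptor, 15 were higher and 0 lower (median 0.65), beside 12.6% higher of all genes. The count was 6 without the first pre-Baso library, 8 and 10 without the first and second basophil library. Gab2, the scaffold that recruits PI3 kinase, was at 6.07 and 8.14 against 17.3 and 18.6 TPM (1.24 ± 0.20, adjusted p = 0.00391). Pik3cd, the kinase subunit itself, was at 8.23 and 11.3 against 20.9 and 20.3 TPM (1.02 ± 0.18, adjusted p = 0.00612). Csk, which restrains Lyn, was at 24.4 and 31.3 against 54.6 and 57.1 TPM (0.99 ± 0.17, adjusted p = 0.00515). These 3 genes separated the stages, as every called gene did. In the machinery of vesicle fusion 6 of 27 rose and 0 fell (median 0.29), with 4 higher without the first library of either stage. Sytl3, a synaptotagmin-like protein that binds Rab27 on secretory vesicles, was at 18.9 and 27.2 against 92 and 90.9 TPM (1.97 ± 0.29, adjusted p = 0.00269), and Lyst, which governs granule size, was at 3.30 and 4.13 against 10.4 and 11.6 TPM (1.35 ± 0.20, adjusted p = 0.00294).

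Histamine genes moved in both directions. Hdc, which makes histamine from histidine, was at 70.6 and 95.2 against 155.2 and 155.5 TPM (0.91 ± 0.18, adjusted p = 0.00895). Hrh4, the histamine receptor of leukocytes, was at 3.58 and 6.62 against 13.8 and 20.8 TPM (1.61 ± 0.33, adjusted p = 0.0108); its call ended without the first pre-Baso library (adjusted p = 0.0771). Slc22a3, an organic cation carrier of histamine, was at 12.8 and 14.4 against 5.74 and 4.31 TPM (-1.29 ± 0.24, adjusted p = 0.00788), and its call ended without the second pre-Baso library. Slc18a2, the carrier that loads histamine into granules, was not called at 14.6 and 14.7 against 23.1 and 18.8 TPM. Among enzymes of lipid mediators, 2 of 11 rose (18.2%) and 1 fell (9.09%), beside 12.6% and 10% of all genes tested. The counts were 1 and 0 without the first basophil library. Alox5ap, the membrane partner of 5-lipoxygenase, was at 449.9 and 574.6 against 823.1 and 843.2 TPM (0.71 ± 0.13, adjusted p = 0.00738). Alox5, the lipoxygenase, was at 74.9 and 89.04 against 48.3 and 54.6 TPM (-0.66 ± 0.16, adjusted p = 0.0194), a call that ended without the second pre-Baso library (adjusted p = 0.0829) or the first basophil library (adjusted p = 0.115).

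Receptors for chemoattractants and mediators rose: 15 of 29 tested were higher and 1 lower (median 0.71), 14 higher without the first basophil library and 11 to 14 over the 4 fits without 1 control library. C3ar1 and C5ar1, the anaphylatoxin receptors, were at 11.1 and 13.4 against 97.2 and 90.7 TPM and at 6.14 and 7.43 against 37.7 and 42.8 TPM (2.85 ± 0.18, adjusted p = 0.00023, and 2.41 ± 0.18, adjusted p = 0.000372). Cxcr2, which draws granulocytes out of the marrow, was at 7.52 and 11.3 against 46.4 and 54.1 TPM (2.32 ± 0.27, adjusted p = 0.00114). Cxcr2 is also on the list of neutrophil markers, whose summed level was higher in both basophil libraries; the part of neutrophils in its rise was not tested. Gpr183, the oxysterol receptor, was at 9.12 and 9.85 against 45.1 and 39.6 TPM (2.05 ± 0.16, adjusted p = 0.000384). Ccr2 and Ccr3, chemokine receptors found on basophils, were at 7.77 and 9.18 against 29.8 and 30.3 TPM and at 0.71 and 0.87 against 4.90 and 4.75 TPM (1.72 ± 0.16, adjusted p = 0.000473, and 1.70 ± 0.18, adjusted p = 0.000759). Ccr2 is also on the list of monocyte and macrophage markers and Ccr3 on that of eosinophil markers. The part of those cells in their rise was not tested. The 2 basophil libraries lay close together for all of these higher receptors. The 1 that fell was Ltb4r1, a leukotriene B4 receptor, at 35.2 and 41.2 against 28.1 and 21.5 TPM (-0.61 ± 0.17, adjusted p = 0.0379); no gene of the list was called lower without either pre-Baso library or the second basophil library. Ptgdr2, the prostaglandin D2 receptor CRTH2, was listed at 0 in all 4.

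Cytokine receptor chains rose in part, and the ligand-binding chains of the IL-3, IL-33 and TSLP receptors were not called while their partner chains were higher. Of 26 tested, 12 rose and 0 fell (median 0.74), with 6 higher without the first pre-Baso library, 8 without the first basophil library and 14 without the second. Il7r, a chain of the IL-7 and TSLP receptors, was at 2.76 and 3.67 against 21.1 and 26.1 TPM (2.55 ± 0.20, adjusted p = 0.000384). Il18r1, the ligand-binding IL-18 receptor chain, was at 14.1 and 19.2 against 60.01 and 62.3 TPM (1.83 ± 0.19, adjusted p = 0.000763). Csf2rb and Csf2rb2, the shared beta chain of the IL-3 family and its IL-3-specific copy, were at 74.5 and 93.3 against 228.4 and 223.4 TPM and at 21.1 and 25.04 against 74.4 and 75.2 TPM (1.43 ± 0.19, adjusted p = 0.00187, and 1.66 ± 0.18, adjusted p = 0.000839). These 2 genes are near copies, and reads could be split between them. Il1rap, the partner chain of the IL-1 and IL-33 receptors, was at 1.77 and 1.93 against 4.69 and 5.07 TPM (1.05 ± 0.20, adjusted p = 0.00828), a call that ended without the first pre-Baso library (adjusted p = 0.054). Il10ra was at 0.51 and 0.65 against 7.11 and 6.47 TPM (2.30 ± 0.21, adjusted p = 0.000482). Il3ra, the IL-3-binding chain, was at 66.7 and 71.7 against 48.2 and 65.4 TPM (adjusted p = 0.24), Crlf2 of the TSLP receptor at 63.8 and 72.96 against 50.9 and 66.5 TPM (adjusted p = 0.474), and Il1rl1 of the IL-33 receptor at 8.84 and 9.61 against 10.7 and 10.2 TPM (adjusted p = 0.519). A missed threshold does not show equal levels. Csf1r, the receptor of macrophages, was at 0.60 and 0.84 against 7.08 and 1.36 TPM, high in the first basophil library.

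Adhesion and paired receptors followed the same direction. They had 45.8% and 34.6% called higher and 0% and 7.69% lower, beside 12.6% and 10% of all genes tested. Of 24 integrin and adhesion genes 11 rose and 0 fell (median 0.68), with 5 higher without the first pre-Baso library and 7 without either basophil library. Itgb3, the beta chain of the vitronectin receptor, was at 1.56 and 1.86 against 8.004 and 7.04 TPM (1.65 ± 0.17, adjusted p = 0.000648). Of 26 inhibitory and paired receptors 9 rose and 2 fell (median 0.71), with 4 and 2 without the first pre-Baso library and 6 and 2 without the first basophil library. Lilrb4a, an inhibitory receptor of the leukocyte immunoglobulin-like family, was at 61.5 and 79.1 against 325.4 and 220.6 TPM (1.93 ± 0.20, adjusted p = 0.000771). Its near copy Lilr4b moved likewise (2.09 ± 0.26, adjusted p = 0.00132), and reads could be split between the 2. Pirb, a relative in the mouse, was at 1.53 and 1.92 against 14.97 and 8.65 TPM (2.19 ± 0.29, adjusted p = 0.00175). Tetraspanins gave 2 higher (14.3%) and 1 lower (7.14%) of 14, near the 12.6% and 10% of all genes tested. The counts were 1 and 2 without the first basophil library. Tyrobp, the DAP12 adaptor of activating receptors, is outside these lists and was named for its abundance; it was at 1301 and 1684 against 2756 and 2633 TPM (0.86 ± 0.12, adjusted p = 0.00256).

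Gata2 and Cebpa, which found the lineage, were not called, while several other transcription factors rose. Gata2 was at 215 and 245.7 against 254 and 245.8 TPM (0.12 ± 0.22, adjusted p = 0.731), and Cebpa was at 102.4 and 93.1 against 95.05 and 109.9 TPM (0.07 ± 0.17, adjusted p = 0.822). Of 54 tested lineage transcription factors 17 rose and 3 fell (median 0.37), with 10 and 0 without the first pre-Baso library and 10 and 1 without the first basophil library. Nfil3, a basic leucine zipper repressor, had the log2 change 1.47 ± 0.25 (adjusted p = 0.00506), a call that ended only with a pseudocount of 0.1 among 18 alternatives. Spi1, the myeloid factor PU.1, was at 45.7 and 52.9 against 106.6 and 103.7 TPM (1.08 ± 0.13, adjusted p = 0.00143). Klf2, a factor of resting leukocytes, was at 0.27 and 0.43 against 5.25 and 3.47 TPM (1.98 ± 0.29, adjusted p = 0.00264). Id2, an inhibitor of E proteins, was at 13.9 and 8.70 against 31.7 and 32.9 TPM (1.47 ± 0.25, adjusted p = 0.00555). Runx2 was at 2.61 and 3.41 against 10.7 and 11.5 TPM (1.597 ± 0.25, adjusted p = 0.00329), and Satb1, a chromatin organiser, at 6.30 and 9.08 against 21.9 and 22.9 TPM (1.45 ± 0.23, adjusted p = 0.00391). Hhex, Tal1 and Myc were also called higher (log2 change 1.06, 1.08 and 0.84, adjusted p = 0.00317, 0.0127 and 0.0277). The calls of Tal1 and Myc each ended in 4 of 18 alternatives. In these factors, as in every gene called higher, both basophil libraries lay above both pre-Baso libraries. The 3 that fell were Cebpb, Myb and Lmo4, and each call ended without the first pre-Baso library (adjusted p = 0.134, 0.128 and 0.165) and at least 1 other control library: Cebpb without the second pre-Baso (0.0833) and the first basophil library (0.151), Myb without the second of each stage (0.192 and 0.212) and Lmo4 without either basophil library (0.102 and 0.117).

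Genes of feedback and signalling state rose with these factors. Of 27 tested immediate early genes 16 were higher and 0 lower (median 0.79), with 10 without the first pre-Baso library and 11 without the first basophil library. Zfp36, the protein that destabilises cytokine messages, was at 2.47 and 3.35 against 28.8 and 15.4 TPM (2.51 ± 0.29, adjusted p = 0.00102). Junb was at 8.97 and 9.08 against 50.1 and 29.4 TPM (1.97 ± 0.24, adjusted p = 0.00129). Both were higher in the first basophil library than in the second. Btg1, an antiproliferative factor, was at 9.58 and 10.4 against 34.9 and 32.9 TPM (1.66 ± 0.16, adjusted p = 0.000547). Among STAT5 targets and feedback genes 10 of 17 rose and 0 fell (median 0.83), and 5 or 6 rose without any 1 of the 4 control libraries. Pim1, a kinase induced through STAT5, was at 16.99 and 17.4 against 52 and 41.03 TPM (1.37 ± 0.19, adjusted p = 0.00222), and Jak2 at 13.1 and 16.99 against 36.7 and 36.9 TPM (1.25 ± 0.18, adjusted p = 0.00276).

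In the list of interferon response genes 42.9% were called higher and 0% lower, beside 12.6% and 10% of all genes tested. Of 35 tested 15 rose and 0 fell (median 0.79); the count was 4 without the first pre-Baso library and 6 without the first basophil library. Rtp4 was at 2.67 and 3.68 against 11.6 and 14.5 TPM (1.75 ± 0.20, adjusted p = 0.001). Isg20, an exonuclease, was at 5.24 and 7.08 against 17.99 and 16.7 TPM (1.37 ± 0.20, adjusted p = 0.00264). Ifitm1, an interferon-induced membrane protein named as one of the 10 most abundant genes of basophils and not a member of the list, was at 401.1 and 558.4 against 2344 and 2437 TPM (2.33 ± 0.15, adjusted p = 0.000236). Ly6e, another interferon-induced gene outside the list, was called lower (log2 change -0.46, adjusted p = 0.023), a call that ended in 6 of 18 alternatives. Toll-like receptors and their adaptors gave 5 higher and 0 lower of 15, with 1 higher without the first pre-Baso library and 2 without the first basophil library. Nlrp3, the inflammasome sensor placed in that list, was at 0.91 and 1.21 against 7.22 and 6.31 TPM (1.92 ± 0.19, adjusted p = 0.000561). Unc93b1, the chaperone of endosomal Toll-like receptors, was at 1.17 and 1.77 against 12.6 and 4.31 TPM, high in the first basophil library, and its call ended without that library (adjusted p = 0.162), without the first or second pre-Baso library (0.176 and 0.103) and in 8 of 18 alternatives in all.

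Genes of the Bcl2 family and death receptors moved in both directions, with 6 higher and 3 lower of 22. These were 27.3% and 13.6%, beside 12.6% and 10% of all genes tested, so the lower share was near that of all genes. Bcl2 was at 5.79 and 5.33 against 1.67 and 1.17 TPM (-1.44 ± 0.19, adjusted p = 0.00192), while Mcl1, the relative that granulocytes depend on, was at 8.79 and 9.51 against 17.8 and 16.5 TPM (0.84 ± 0.15, adjusted p = 0.00666). Fas, the death receptor, was at 1.05 and 0.73 against 5.44 and 4.18 TPM (1.61 ± 0.23, adjusted p = 0.00241). Bbc3 and Pmaip1 rose too (adjusted p = 0.012 and 0.0167). Both calls ended without the first library of either stage, and that of Pmaip1 also without the second pre-Baso library. The counts were 2 higher and 1 lower without the first pre-Baso or the first basophil library. Galectins diverged as well. Lgals3, galectin-3, was at 83.3 and 96.5 against 324.2 and 301.9 TPM (1.79 ± 0.14, adjusted p = 0.000384), and Lgals1, galectin-1, was at 449.4 and 614.8 against 227.9 and 245.6 TPM (-1.15 ± 0.17, adjusted p = 0.003).

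Metabolic and ribosomal lists showed smaller shifts. The median change of all genes tested was itself 0.08, and 0.006 when libraries were scaled by median ratios. The part of the scaling to a fixed total in these small medians was not tested. Cytosolic ribosomal protein genes gave 20 higher and 3 lower of 79 (median 0.23), and 8 and 2 without the first pre-Baso or the first basophil library. Rps27 was at 1095 and 1459 against 2353 and 2424 TPM (0.92 ± 0.16, adjusted p = 0.00555), and Rpl29 fell, from 51.9 and 59.6 to 29.1 and 27.6 TPM (-0.95 ± 0.16, adjusted p = 0.0044). Ribosomal protein genes have many processed copies, so these values are uncertain. In glycolysis and the pentose phosphate path 8 of 24 rose and 2 fell (median 0.15), and 4 and 1 without the first pre-Baso or the first basophil library. Aldoa, an aldolase, was at 217.3 and 267 against 558 and 573.4 TPM (1.23 ± 0.13, adjusted p = 0.000682). Of 48 lysosomal genes 8 rose (16.7%) and 2 fell (4.17%), beside 12.6% and 10% of all genes tested. The counts were 4 and 1 without the first pre-Baso or the first basophil library. Ctsd, cathepsin D, was at 113.5 and 130.6 against 279.6 and 291.5 TPM (1.22 ± 0.12, adjusted p = 0.000667), close in both basophil libraries.

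Among the genes with the largest increases by rule were several outside these lists. Defb40, a beta-defensin, was listed at 0 in both pre-Baso libraries and was at 27.7 and 24.7 TPM in basophils (adjusted p = 6.1e-05). Wdr95 was at 0.10 and 0 against 13.5 and 17.4 TPM (adjusted p = 0.000111). Samhd1, which degrades deoxynucleotides in resting cells, was at 4.14 and 4.82 against 65.4 and 60.1 TPM (3.54 ± 0.18, adjusted p = 0.000111). Gstm1, a glutathione transferase, was at 22.2 and 21.7 against 174.1 and 173.3 TPM (2.93 ± 0.13, adjusted p = 6.1e-05), with replicates almost equal. Slc6a4, the serotonin transporter, was at 0.75 and 1.43 against 11.03 and 12.3 TPM (2.62 ± 0.20, adjusted p = 0.000384). Mapk12, the p38 gamma kinase, Slfn2, a regulator of quiescence, and Adam8, a membrane metalloprotease, had log2 changes of 2.89 ± 0.17, 2.78 ± 0.15 and 2.63 ± 0.25. The rule also named Trex1 and Evi2a, each listed at 0 in 1 pre-Baso library. Trex1, whose exons overlap those of Atrip, lost its call in 13 of 18 alternatives, among them the fits without the second pre-Baso library (adjusted p = 0.0774), the first basophil library (0.107) and the second (0.0804). Evi2a shares exonic bases with Evi2, and this overlap and that of Trex1 with Atrip are on the same strand. Other genes named by size share exonic bases with a gene on the opposite strand, such as Ube2c with Tnnc2, Rfc4 with Eif4a2 and Fen1 with Tmem258. The files do not say that strand was used in quantification, and without it reads of overlapping genes on opposite strands cannot be separated.

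The same step in the Nfil3-depleted mice, 4 libraries that share no sample with the controls, moved in the same direction for most called genes. The first basophil library of that genotype carried some of the transcripts that set the first control one apart: Cd74, the MHC class II invariant chain, was at 302.3 TPM there and 14.1 TPM in the second, and H2-Aa, an MHC class II chain, at 129.1 and 6.56 TPM. Of the 2832 genes called in controls, 2779 had the same sign there (98.1%), against 72.5% of the 9679 genes not called. With the first basophil library of both genotypes left out, an alternative chosen after seeing the data that leaves 1 basophil library per genotype, 2730 of the 2832 had the same sign in both (96.4%), against 66.3% of the other genes. There were 1363 genes called in the Nfil3-depleted libraries, and 1175 were shared with the same sign, 41.5% of the control calls and 86.2% of the calls without Nfil3. The median change of genes called lower was -1.10 in controls and -0.68 in the Nfil3-depleted libraries, and that of genes called higher was 0.92 and 0.69. The genes were chosen for their change in controls, which can by itself make the control value the larger one. The part of this selection in the gap was not tested. The test of the difference between the 2 genotypes' changes called 0 genes in the main limma fit, with 689 of 12511 at an unadjusted p under 0.05. With a pseudocount of 0.1 it called 2 genes, and some fits that left out 1 library also called genes. Mcpt8 changed by -2.59 in controls and by -0.84 without Nfil3, and the difference was not called.

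**Figure D5:**
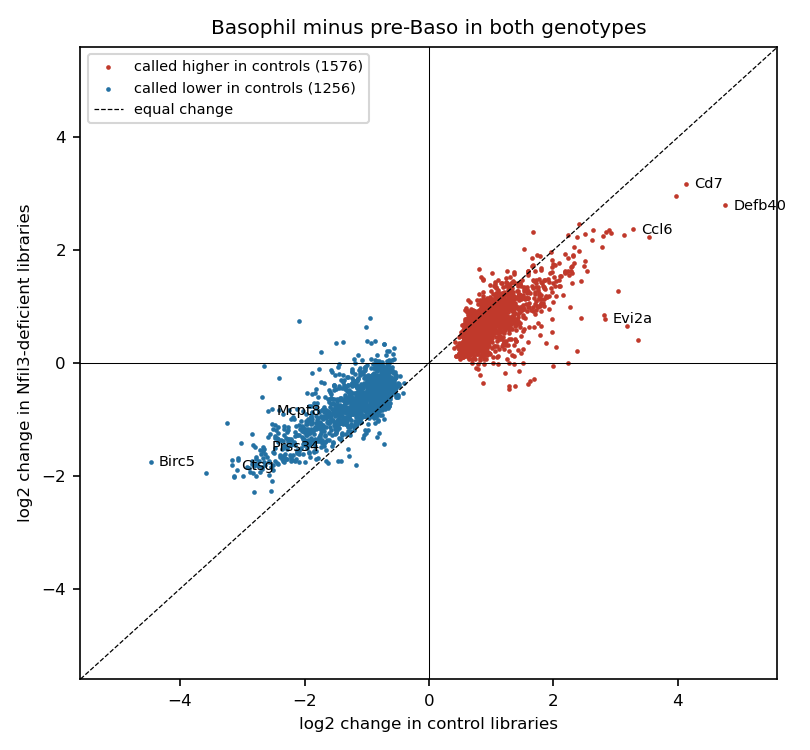
Log2 change from pre-Baso to basophil in the Nfil3-depleted libraries (y axis) against that in the control libraries (x axis) for the 2832 genes called in controls, 1 point per gene, with equal change as a dashed line. Points fill the lower left and upper right, 2779 of them with the same sign in both genotypes.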

How the data were processed

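Total RNA of sorted marrow cells was made into libraries with a SMARTer kit, per the labels. The authors aligned reads to mm10 with HISAT2 and quantified them with StringTie 2.1.4 against an Ensembl release 101 annotation, per the submitters' processing notes and the file headers, and deposited TPM, FPKM and coverage per transcript. Gene TPM were summed here over transcripts. Values are not counts, so limma 3.58.1 (R 4.3.3) was fitted on log2(TPM + 1) with empirical Bayes moderation and a trend, over all 8 libraries in 4 groups (4 residual degrees of freedom), for genes at 1 TPM or more in at least 2 libraries, with Benjamini-Hochberg adjustment over 12511 genes. The model was run on simulated data with independent noise and few changed genes. That setting differs from these data, so the run gives no error rate for the calls here. Assigned bases are given as depth, and intervals for single values were not computed because read counts are not in the files used here.

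The comparison, its gene lists, the motifs and the tests were chosen with earlier results of these data known. Genes named are, per direction, the 15 largest called changes with a mean of at least 5 TPM in the higher group and no overlap (systematic names, pseudogenes, small RNAs, immune receptor segments and histones left out); up to 6 called members per list; all members of the lists of sort and stage markers, granule proteases, histamine, Fc receptors, cytokines, cytokine receptors and transcription factors; the top markers of other cell types; Nfil3; and the 10 most abundant protein-coding genes per stage. From these the text gives the genes whose values show each list; Cdc20, Cdk1, Cdkn1b, Cks2, Elane, Ern1, Ltb4r1, Prtn3, Ptgdr2, Pttg1 and Rbl2 lie outside the rule and were chosen after their values were seen. Gene symbols came from the files for 45578 genes and from the reference table for 9814 of 55487.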

Additional observations from a re-analysis of the deposited data

How the results depend on the processing

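The 18 alternatives and 1 added later changed how many genes were called, and no called gene changed direction under any of them. The fits that leave out libraries could not have shown such a change, because the control groups of every called gene did not overlap. Testing all genes without a filter on low values (32088 genes) gave 844 higher and 672 lower. Leaving out 1 library gave 564 to 1440 higher and 563 to 1216 lower, the lowest counts coming without a control pre-Baso library. Leaving out the first basophil library of both genotypes, an alternative chosen after seeing the data in which the lone basophil library of a genotype is assumed to vary like the pre-Baso libraries, gave 359 higher and 673 lower and a same-sign share of 95.1%. The share of called genes with the same sign in the Nfil3-depleted libraries was between 95.4% and 98.5% under the other alternatives that fit both genotypes. Scaling by median ratios gave 1537 higher and 1742 lower, and FPKM gave 1649 and 1530. Of 228 named genes called, 123 kept their call in all 18 alternatives, and another 7 kept it in the 17 in which they were tested; 80 lost it without the first pre-Baso library, 60 without the first basophil library and 71 without the filter. Of 81 named genes not called, 24 were called in at least 1 alternative. List medians changed sign in 11 of 738 comparisons, in 4 lists: tetraspanins (-0.015 with a pseudocount of 5, -0.092 with median-ratio scaling, -0.04 with FPKM, and -0.144 to 0.079 over the fits without 1 library, lowest without the first pre-Baso library), lipid mediator synthesis (-0.032) and sterol and fatty acid synthesis (0.147) with the stricter filter, and the 2 tested platelet markers (0.663 with a pseudocount of 0.1, 0.009 with protein-coding genes only, 0.064 with FPKM, and -1.319 to 1.273 over the fits without 1 library, among them 0.214 without the second basophil library). The cause was not tested.

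By the rule that every pair of groups must correlate above 0.1, replicate numbers were not taken to pair the samples. Deviations of same-numbered libraries correlated between -0.05 and 0.06 over 5 of 6 pairs of groups. With 2 libraries per group, this check cannot exclude that same-numbered libraries share a source. The 2 basophil groups correlated at 0.20, and the first library of each carried MHC class II transcripts that the second did not. With the replicate number as a block, 1551 genes were called higher and 1227 lower, with 97.9% of the called genes of the same sign in the Nfil3-depleted libraries, and 7 named genes lost their call. Depth in reads is not known, so genes near 1 TPM carry an error that could not be given.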
